A study of Mus musculus with 11 samples.

Results

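The 8 genes followed in mouse liver mark or maintain the identity of the hepatocyte, the main cell of the liver: the forkhead factors Foxa1, Foxa2 and Foxa3, the C/EBP factors Cebpa and Cebpb, the homeobox factor Prox1, and 2 products often read beside them, albumin (Alb) and the fetal marker alpha-fetoprotein (Afp). They were chosen by gene name, and all 8 were found among the 31280 genes of the table, each on 1 row. Liver RNA came from wild-type C57BL/6 mice kept for 8 weeks on a diet deficient in methionine and choline (MCD), which produces fatty liver with inflammation and fibrosis. The MCD group (n = 5) received water by gavage, and the limonin group (n = 6) received limonin, a triterpenoid of citrus fruit, at 100 mg/kg by gavage for 4 weeks. Both groups ate the deficient diet, so every difference below is between limonin and water under that diet, and complete-diet controls were not analysed here. The labels give no more on the origin of the replicates than their numbers, so p-values measure the spread between these libraries.

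FOXA proteins open liver enhancers early in development and keep them accessible in the adult liver. C/EBP alpha supports metabolic genes and restrains division of the hepatocyte, while C/EBP beta responds to injury, cytokines and regeneration. PROX1 marks the early liver bud and, in the adult, acts as a corepressor in hepatocytes, and it is also the defining factor of lymphatic endothelium. Albumin is the main plasma protein made by the adult hepatocyte, and alpha-fetoprotein is its fetal counterpart, silenced after birth.

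Of the 8 genes, 1 was higher with limonin (Alb), 2 were lower (Foxa3 and Cebpb) and 5 did not pass the test (Foxa1, Foxa2, Cebpa, Prox1 and Afp), by limma on log2(FPKM + 1) with a Benjamini-Hochberg adjusted p under 0.05. FPKM are fragments scaled to transcript length and to the size of the library. All 8 passed the filter of 1 FPKM in 5 libraries, and each was above 3 FPKM in all 11 libraries, so none entered through 1 group alone. Among all 10489 genes tested, 25.9% were called, 7.24% higher and 18.7% lower, so calls were common in this comparison. The limonin and MCD libraries overlapped for each of the 8 genes, whereas over all tested genes 2.97% lay wholly above and 8.33% wholly below the MCD libraries. The median log2 fold change of the 8 genes was -0.07, beside -0.07 over all genes tested. In bulk tissue, fewer cells of a type and less RNA per cell cannot be told apart.

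**Figure D1:**
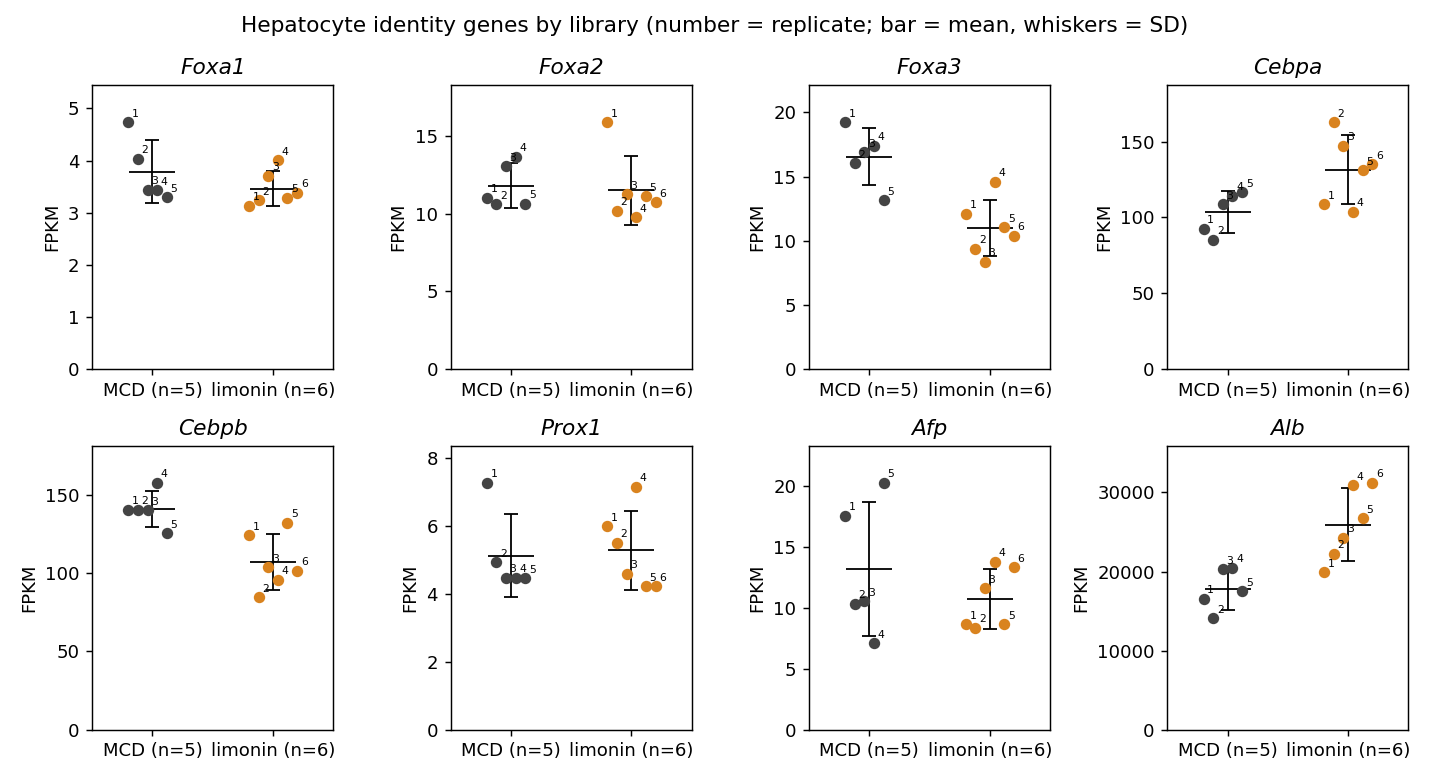
FPKM of each of the 8 genes (y axis, from 0) in every MCD and limonin library (x axis); points are libraries with their replicate numbers, the bar is the mean and whiskers are the SD. Foxa3 and Cebpb sat lower and Alb higher with limonin, with some overlap in each, while for Afp the limonin libraries lie inside the wider MCD range.

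The balance of calls over all genes depended on how libraries were scaled. Of the genes called, 27.9% were higher on the FPKM as given, 48.1% when libraries were scaled by median ratios, 52.9% when quantiles were equalised and 49.6% at equal summed FPKM. In the same order, the median gene had a log2 fold change of -0.07, 0.01, 0.03 and 0.03. Summed FPKM ran from 464184 to 471623 in MCD and from 404050 to 462665 with limonin. Depth is not given; low values of single-transcript genes, 6.5% to 9.1% of which fell within 1% of 1 shared step, give a rough estimate of 15600000 to 19630000 fragments per library.

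Foxa3 fell with limonin, while Foxa1 and Foxa2 did not pass the test. Foxa3 (chromosome 7, 19013284 to 19023538, minus strand, GRCm38, with a coding transcript of 2037 bases in 2 exons) encodes a FOXA factor of the adult liver. Its level was 19.3, 16.0, 16.9, 17.4 and 13.2 FPKM in MCD 1 to 5. With limonin it was 12.1, 9.38, 8.37, 14.6, 11.05 and 10.4 FPKM in limonin 1 to 6. In all, 5 of the 6 limonin libraries lay below every MCD library, and limonin 4 lay above MCD 5. The mean went from 16.5 ± 2.23 FPKM (SD, n = 5) to 10.98 ± 2.20 FPKM (SD, n = 6). On the log2 scale the difference was -0.56 ± 0.13 (SE), a fold of 0.678 with a 95% interval of 0.558 to 0.824 and an adjusted p of 0.0092 (limma). The call held in all 24 alternative fits, including each library left out in turn (adjusted p from 0.00617 to 0.0275) and the 3 other scalings, where the log2 fold change was -0.47, -0.49 and -0.45. In the authors' deposited table Foxa3 has a fold of 0.664 and a q of 0.0356 and is marked as significant.

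The 250 bases before the RefSeq start of Foxa3 are shown because this gene carries the call that held in every fit (GRCm38.p6, chr7:19023540-19023789, minus strand). Capitals mark letters matching a TATA box (TATAAA) or a CCAAT box (CCAAT), searched on both strands.
Foxa3: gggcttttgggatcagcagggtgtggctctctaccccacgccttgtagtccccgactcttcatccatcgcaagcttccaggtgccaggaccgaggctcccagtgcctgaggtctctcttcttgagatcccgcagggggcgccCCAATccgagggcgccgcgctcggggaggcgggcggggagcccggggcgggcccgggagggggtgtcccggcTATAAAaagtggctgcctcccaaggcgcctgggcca
The TATAAA letters lie 36 to 31 bases before the start and the CCAAT letters 108 to 104 bases before it. Of 32851 mouse promoter windows of the same length, 12.4% hold TATAAA and 33.8% hold CCAAT, so these letters are common. The window has a GC content of 68.8%, beside a median of 52.4% over all windows.

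Foxa1 (chromosome 12, 57540628 to 57546916) and Foxa2 (chromosome 2, 148042877 to 148046969) are the pioneer factors of the liver bud, needed together for liver specification. Foxa1 was at 4.74, 4.04, 3.44, 3.43 and 3.30 FPKM in MCD 1 to 5 and at 3.13, 3.24, 3.71, 4.00, 3.29 and 3.38 FPKM in limonin 1 to 6. MCD 1 and 2 lay above every limonin library, and limonin 1, 2 and 5 lay below every MCD library. Its log2 fold change was -0.10 ± 0.10, a fold of 0.935 with a 95% interval of 0.805 to 1.085. Foxa2 was at 11.02, 10.6, 13.1, 13.7 and 10.6 FPKM in MCD and at 15.9, 10.2, 11.2, 9.75, 11.1 and 10.7 FPKM with limonin. Limonin 1 was the highest of all 11 libraries, and the other 5 limonin libraries lay close to the lower MCD values. The log2 fold change of Foxa2 was -0.04 ± 0.12, a fold of 0.97 with an interval of 0.81 to 1.16, and its sign turned under all 3 other scalings. The spread between libraries (SD over mean) was 15.9% in MCD and 9.56% with limonin for Foxa1, and 12.3% and 19.4% for Foxa2.

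The makeup of the family is a description of the same values, with no test. Foxa3 made up 48.55% to 54.98% of the summed Foxa FPKM in the MCD libraries and 35.9% to 51.49% in the limonin libraries. Foxa2 made up 31.48% to 39.63% and 34.39% to 51.05%. The sum of the 3 genes was 32.1 ± 3.28 FPKM (SD, n = 5) in MCD and 25.9 ± 3.22 FPKM (SD, n = 6) with limonin, and the groups overlapped. Per length, Foxa3 was thus the most abundant of the family in all 5 MCD libraries, while Foxa2 exceeded it in limonin 1, 2, 3, 5 and 6.

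**Figure D2:**
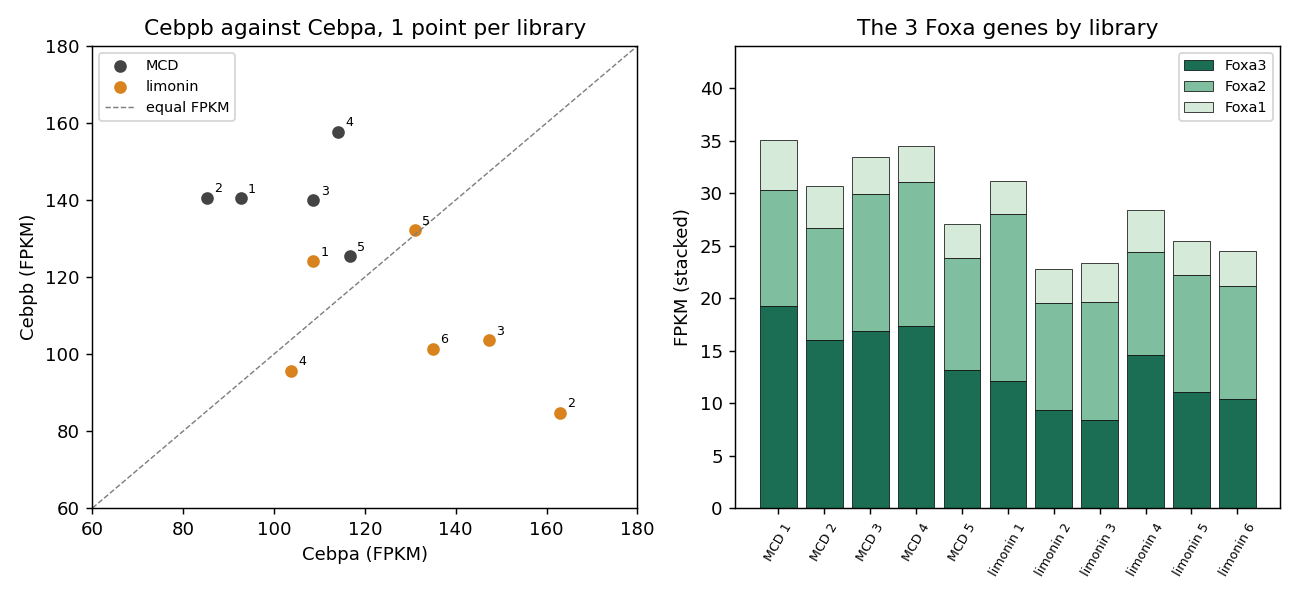
Left, Cebpb against Cebpa in FPKM (both axes start at 60), 1 point per library with its replicate number and a dashed line of equal FPKM; right, stacked FPKM of the 3 Foxa genes by library. All 5 MCD libraries lie above the line of equal FPKM, 4 of 6 limonin libraries lie below it, and the Foxa3 share is smaller in most limonin bars.

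Of the 2 C/EBP factors, Cebpb fell with limonin and Cebpa did not pass the test. Cebpb (chromosome 2, 167688915 to 167690418, plus strand, a single exon of 1504 bases) was at 140, 141, 140, 158 and 125 FPKM in MCD 1 to 5. With limonin it was at 124, 84.8, 104, 95.7, 132 and 101 FPKM in limonin 1 to 6. In all, 5 of the 6 limonin libraries lay below every MCD library, and limonin 5 lay above MCD 5. The mean went from 141 ± 11.4 FPKM (SD, n = 5) to 107 ± 17.8 FPKM (SD, n = 6). That is a fold of 0.755 (95% interval 0.633 to 0.899), or -0.41 ± 0.12 on the log2 scale, with an adjusted p of 0.0238 (limma). The call was lost without MCD 2, without MCD 4 and without limonin 4 (adjusted p = 0.0578, 0.0516 and 0.0501), without both MCD 4 and 5 (0.0682), with no filter (0.0629), after median-ratio scaling (0.0946) and at equal summed FPKM (0.0673). In the authors' deposited table its q is 0.297.

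Cebpa (chromosome 7, 35119293 to 35121928, plus strand, a single exon of 2626 bases) was at 92.7, 85.3, 109, 114 and 117 FPKM in MCD 1 to 5 and at 109, 163, 147, 104, 131 and 135 FPKM in limonin 1 to 6. Of the 6 limonin libraries, 4 lay above every MCD library, and limonin 1 and 4 lay within the MCD range. Its mean was 104 ± 13.8 FPKM in MCD and 131 ± 22.6 FPKM with limonin, a log2 fold change of 0.33 ± 0.13 with an interval of 1.04 to 1.53 for the fold and an adjusted p of 0.0746 (limma), so it missed the threshold. It passed the threshold without limonin 1 (0.0476), without limonin 4 (0.0459) and at equal summed FPKM (0.0322). The authors' deposited table gives a q of 0.0307 but does not mark Cebpa as significant.

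The ratio of Cebpb to Cebpa FPKM was 1.52, 1.65, 1.29, 1.38 and 1.07 in MCD 1 to 5 and 1.14, 0.520, 0.703, 0.922, 1.01 and 0.751 in limonin 1 to 6. Only limonin 1 exceeded the lowest MCD library, MCD 5. A ratio within a library does not depend on how libraries are scaled by a single factor. It is given as a description with no test, since both genes were chosen with earlier results known.

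The 250 bases before the RefSeq starts of both C/EBP genes are shown for comparison (Cebpa, GRCm38.p6 chr7:35119043-35119292; Cebpb, chr2:167688665-167688914; both plus strand). Capitals mark matches to the motifs spelled out for Foxa3 and, for albumin, below.
Cebpa: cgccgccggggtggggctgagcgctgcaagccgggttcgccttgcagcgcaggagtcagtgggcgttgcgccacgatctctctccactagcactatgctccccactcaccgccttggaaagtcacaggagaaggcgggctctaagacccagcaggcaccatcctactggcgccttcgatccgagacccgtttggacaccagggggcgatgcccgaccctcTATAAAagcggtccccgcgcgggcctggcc
Cebpb: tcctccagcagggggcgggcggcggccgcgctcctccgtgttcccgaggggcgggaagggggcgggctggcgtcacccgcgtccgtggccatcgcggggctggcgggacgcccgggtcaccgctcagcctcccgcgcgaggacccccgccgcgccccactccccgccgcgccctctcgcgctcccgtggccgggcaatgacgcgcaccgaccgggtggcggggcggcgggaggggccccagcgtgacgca
Cebpa holds TATAAA at 30 to 25 bases before its start and Cebpb holds none of the letters searched in this window. Both windows are rich in G and C, at 66.4% for Cebpa and 81.6% for Cebpb, and the Cebpb window holds 41 CG pairs beside a median of 6 over all windows.

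Of the C/EBP relatives and regulators listed, 8 of 10 were tested, 3 fell, 1 rose and 4 were not called. That is 50% called, beside 25.9% of all genes tested. The median log2 fold change was -0.08 beside -0.07 over all genes. Ddit3, which encodes the stress factor CHOP, a dimer partner of C/EBP proteins, fell from 18.0 ± 2.26 FPKM (SD, n = 5) to 8.38 ± 3.56 FPKM (SD, n = 6) (log2 fold change -1.09 ± 0.22, adjusted p = 0.00547.) Cebpd, a cytokine-induced relative, fell from 7.91 ± 2.50 to 3.86 ± 0.753 FPKM (log2 fold change -0.85 ± 0.17, adjusted p = 0.00441.) All 6 limonin libraries lay below every MCD library for both Ddit3 and Cebpd, and both calls held in all 24 alternative fits. Trib1, a pseudokinase adaptor that promotes breakdown of C/EBP alpha protein, fell from 5.32 ± 0.993 to 3.86 ± 0.735 FPKM (log2 fold change -0.38 ± 0.13, adjusted p = 0.0473), a call kept in only 3 of the 11 fits with 1 library left out (adjusted p from 0.0417 to 0.125). The call of Trib1 was also lost under the 3 other scalings (0.121, 0.148 and 0.157) and with no filter (0.11), and its q in the authors' deposited table is 0.318. Cebpe, a relative best known from granulocytes, rose from 4.06 ± 1.43 to 6.10 ± 1.12 FPKM (log2 fold change 0.52 ± 0.17, adjusted p = 0.0367), also kept in only 3 of those 11 fits, those without MCD 4, limonin 4 or limonin 5, and lost with no filter (0.1004). The genes not called were Cebpg, Cebpz, Trib3 and Cop1.

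**Figure D3:**
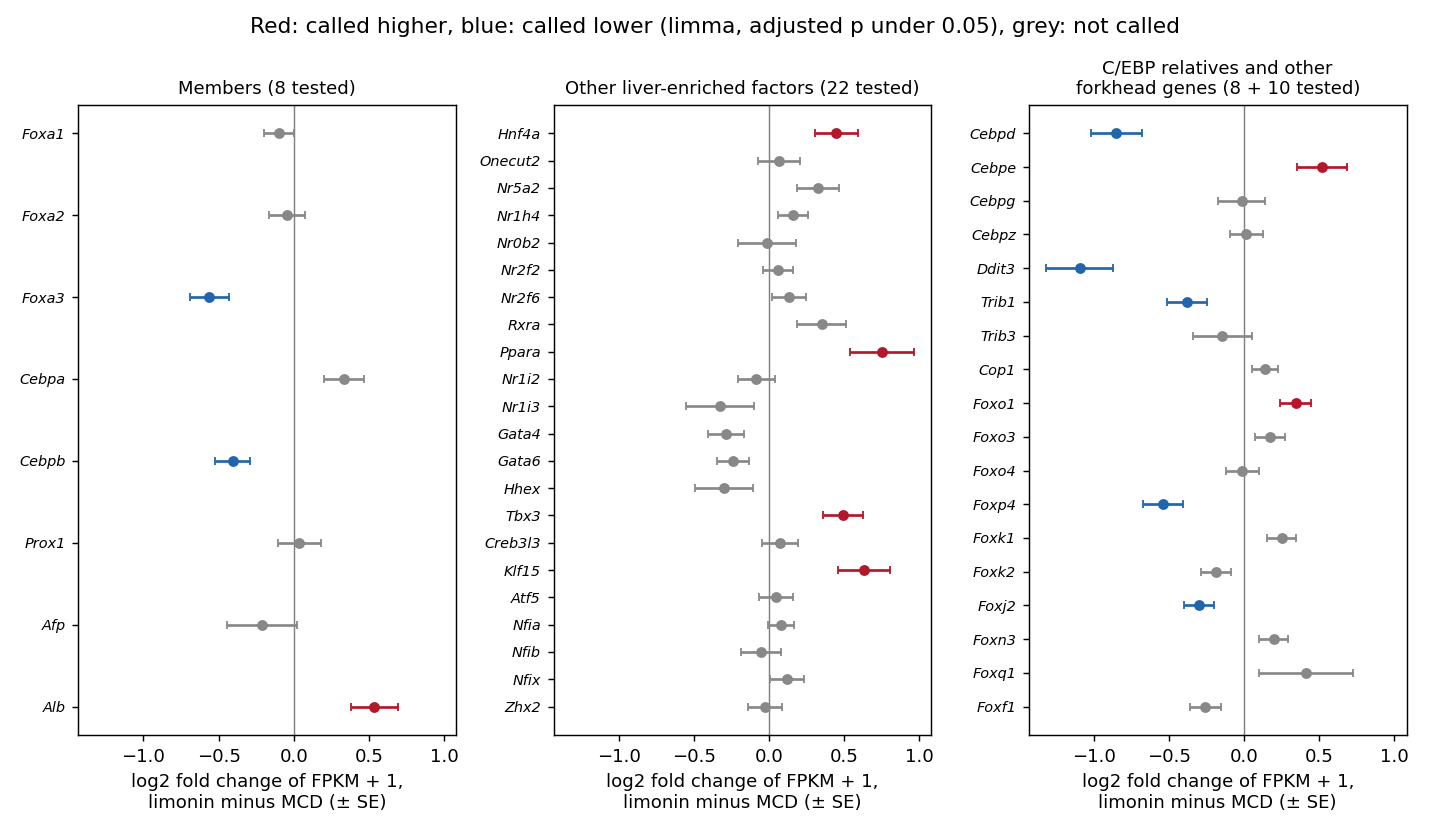
Log2 fold change of FPKM + 1, limonin minus MCD, with SE (x axis) for the 8 members, 22 other liver-enriched transcription factors, and 8 C/EBP relatives with 10 other forkhead genes; red is called higher, blue called lower and grey not called. Foxa3 at -0.56, Cebpd at -0.85 and Ddit3 at -1.09 lie left of 0, and 18 of the 22 other liver-enriched factors are grey.

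Prox1 did not differ detectably. Prox1 (chromosome 1, 190118035 to 190170714, minus strand; 7913 bases in 5 exons) was at 7.26, 4.92, 4.47, 4.47 and 4.45 FPKM in MCD 1 to 5 and at 5.99, 5.50, 4.59, 7.14, 4.22 and 4.22 FPKM in limonin 1 to 6. MCD 1 and limonin 4 were the highest libraries, and the groups overlapped almost fully. Its log2 fold change was 0.04 ± 0.14, a fold of 1.03 with a 95% interval of 0.8286 to 1.27. Lymphatic endothelial markers did not pass the test either: of 4 tested (Lyve1, Flt4, Ccl21a and Reln, of 6 listed), 0 were called by limma and 0 had an unadjusted p under 0.05, while 1 was called lower without MCD 1 and 1 with no filter. Their summed FPKM, over all 6 listed, ran from 6.56 to 14.7 in MCD and from 6.05 to 9.07 with limonin. Of these genes, Reln is also listed among the stellate cell markers.

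Of the cofactors and partners listed for PROX1 and FOXA, 7 of 8 were tested and 28.6% of those were called, beside 25.9% of all genes. Among these, 1 fell, 1 rose and 5 were not called. The number called higher was 3 after median-ratio scaling, 3 after quantile normalization, 2 at equal summed FPKM and 0 with no filter, and it was 0 to 3 with 1 library left out (0 without MCD 1, 2, 3 or 5 or limonin 2, 3 or 4, 2 without limonin 5 and 3 without limonin 6). Tle3, a Groucho-family corepressor that binds FOXA proteins, fell from 2.58 ± 0.560 to 1.71 ± 0.169 FPKM (log2 fold change -0.39 ± 0.11, adjusted p = 0.0212). The call of Tle3 was lost without MCD 1 (0.054), without MCD 2 (0.0673), after quantile normalization (0.0596) and at equal summed FPKM (0.0768). Hnf4a, the gene that rose, is described with the other factors below. Hdac3, Ncor1, Kdm1a, Tle1 and Nr5a2 were not called.

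Albumin was higher with limonin. Alb (chromosome 5, 90460897 to 90476602, plus strand, GRCm38) was at 16579, 14082, 20269.6, 20469.6 and 17545 FPKM in MCD 1 to 5. With limonin it was at 19892, 22278, 24269, 30950.2, 26711 and 31232 FPKM in limonin 1 to 6. Of the 6 limonin libraries, 5 lay above every MCD library, and limonin 1 lay below MCD 3 and 4. Alb was the most abundant gene, rank 1, in each limonin library and had ranks 1 to 3 in the MCD libraries. Its share of summed FPKM was 3.80% ± 0.580 (SD, n = 5) in MCD and 6.02% ± 1.03 (SD, n = 6) with limonin. The log2 fold change was 0.54 ± 0.16, a fold of 1.45 with a 95% interval of 1.151 to 1.82 and an adjusted p of 0.0233 (limma). The call was lost without MCD 1, MCD 2 or limonin 4 (adjusted p = 0.052, 0.0767 and 0.0502), without both limonin 5 and 6 (0.0656), with no filter (0.0541) and after quantile normalization (0.0714, log2 fold change 0.36). The authors' deposited table gives a fold of 1.46 and a q of 0.00197 but does not mark Alb as significant.

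Alpha-fetoprotein did not differ detectably. Afp (chromosome 5, 90490737 to 90508907, plus strand), which follows Alb on the same strand with 14134 bases and 0 annotated genes between them, was at 17.5, 10.3, 10.5, 7.07 and 20.2 FPKM in MCD 1 to 5 and at 8.66, 8.35, 11.6, 13.8, 8.66 and 13.3 FPKM in limonin 1 to 6. MCD 1 and 5 were high and MCD 4 was the lowest of all libraries, and every limonin library lay within the MCD range. The log2 fold change was -0.21 ± 0.23, a fold of 0.865 with an interval of 0.61 to 1.23, and the spread between MCD libraries was 41.9% (SD over mean), the widest of the 8 genes in that group. Albumin exceeded alpha-fetoprotein in FPKM by 867 to 2895 times in the MCD libraries and by 2098 to 3086 times in the limonin libraries.

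The windows before the RefSeq starts of Alb and Afp are shown because Alb was called and its neighbour Afp was not, a difference that was not itself tested (GRCm38.p6 chr5:90460620-90460869 and chr5:90490464-90490713, plus strand). Capitals mark matches on either strand to the CCAAT and TATA boxes, spelled as for Foxa3, and to 2 further motifs. The C/EBP motif searched was TTGCNNAA. The forkhead motif was TGTTT followed by any base and then by C. No matches overlap.
Alb: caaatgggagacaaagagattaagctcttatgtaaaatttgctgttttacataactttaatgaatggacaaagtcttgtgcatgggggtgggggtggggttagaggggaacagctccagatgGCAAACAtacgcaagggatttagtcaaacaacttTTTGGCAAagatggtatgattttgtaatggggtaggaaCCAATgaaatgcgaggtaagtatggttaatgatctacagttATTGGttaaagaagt
Afp: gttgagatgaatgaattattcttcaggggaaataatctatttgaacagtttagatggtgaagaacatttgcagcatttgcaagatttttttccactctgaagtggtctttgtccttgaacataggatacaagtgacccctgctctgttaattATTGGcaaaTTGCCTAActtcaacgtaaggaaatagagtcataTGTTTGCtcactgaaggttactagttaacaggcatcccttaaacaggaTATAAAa
In Alb the forkhead letters lie 128 to 122 and the C/EBP letters 94 to 87 bases before the start. In Afp the C/EBP letters lie 89 to 82, the forkhead letters 55 to 49 and the TATAAA letters 7 to 2 bases before it. Distances are counted from the RefSeq starts. These lie upstream of the gene starts given above, 90460897 for Alb and 90490737 for Afp. The Alb window also holds CCAAT on both strands, 56 to 52 (plus) and 15 to 11 (minus) bases before the start. The Afp window holds it on the minus strand, 98 to 94 bases before the start. Over 32851 windows of that length, 17.8% hold the forkhead motif and 9.56% the C/EBP motif, and 251 (0.764%) hold both together with CCAAT. This combination is the one shared by the Alb and Afp windows, so its low share carries no weight on its own. The GC content of both windows lies below the median of 52.4% over all windows, so these rates may not hold for such windows. The HNF4 direct-repeat motif (in 0.338% of windows) and the NF-kappaB motif (in 0.98%) had no match in the windows of any of the 8 genes. A match is only a match of letters.

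The other 2 genes of the albumin family rose, where 7.24% of all genes tested were called higher. Gc, the vitamin D-binding protein, rose from 1691 ± 65.2 FPKM (SD, n = 5) to 2244 ± 238 FPKM (SD, n = 6) (log2 fold change 0.40 ± 0.10, adjusted p = 0.0148). For Gc the 6 limonin libraries were all above the MCD libraries. The call of Gc was lost without both MCD 4 and 5. Afm, which encodes afamin, a plasma carrier of vitamin E, rose from 40.9 ± 11.1 to 63.1 ± 12.2 FPKM (log2 fold change 0.63 ± 0.17, adjusted p = 0.0179). Its adjusted p (limma) was 0.057 without MCD 2, 0.0533 without both limonin 5 and 6 and 0.062 with no filter.

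Of 25 secreted and enzymatic products of the adult hepatocyte, all tested, 9 rose, 0 fell and 16 were not called. Those called made up 36%, all of them higher, while 25.9% of all genes tested were called and 7.24% were higher. The median log2 fold change was 0.27 beside -0.07 over all genes. Between 7 and 10 products were called higher when 1 library was left out, but only 3 in the fit blocked by replicate number. Fgg, a fibrinogen chain, rose from 437 ± 65.5 FPKM (SD, n = 5) to 1048 ± 533 FPKM (SD, n = 6) (log2 fold change 1.16 ± 0.25, adjusted p = 0.00632.) Cps1, which starts the urea cycle, rose by 1.05 ± 0.23, Tdo2, which degrades tryptophan, by 0.79 ± 0.18 and F9, clotting factor IX, by 0.51 ± 0.13 on the log2 scale. The others that rose were Trf (transferrin), Apoh, Fgb, Otc and Uox. Several markers of the same cell did not pass the test: Ttr, the thyroxine carrier transthyretin, had a log2 fold change of -0.12 ± 0.15, Apoa1, the main protein of high-density lipoprotein, -0.65 ± 0.23 (adjusted p = 0.055), and Asgr1, an asialoglycoprotein receptor subunit, 0.12 ± 0.10. Without limonin 4 or limonin 5, 1 member of the list was called lower.

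**Figure D4:**
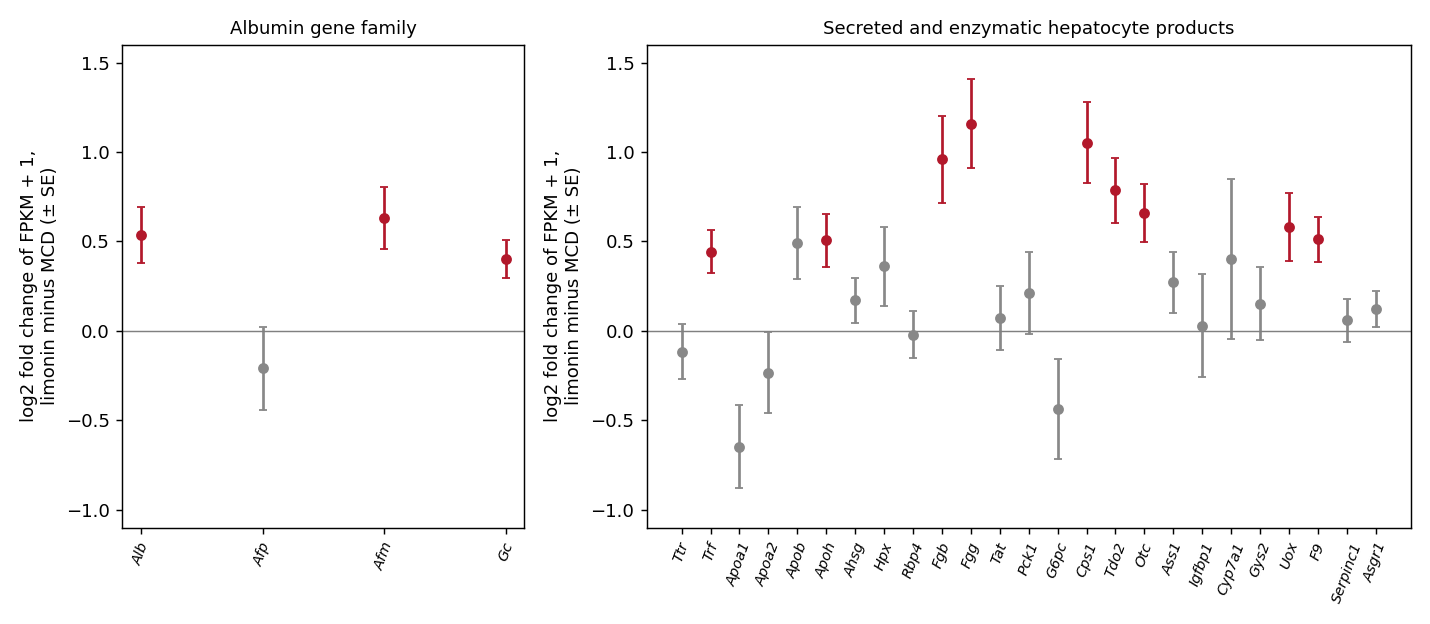
Log2 fold change of FPKM + 1, limonin minus MCD, with SE (y axis) for the 4 genes of the albumin family (left) and 25 secreted and enzymatic hepatocyte products (right); red is called higher and grey not called. Alb, Afm and Gc lie between 0.40 and 0.63 while Afp lies at -0.21, and the 9 products called all lie above 0.40.

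Among the other liver-enriched transcription factors, 22 of 25 were tested, and 4 rose, 0 fell and 18 were not called by limma (18.2% called, beside 25.9% of all genes), with a median log2 fold change of 0.07. Tbx3, a T-box factor of liver progenitors and of pericentral hepatocytes, rose from 2.10 ± 0.375 FPKM (SD, n = 5) to 3.38 ± 0.768 FPKM (SD, n = 6) (log2 fold change 0.49 ± 0.13, adjusted p = 0.0173.) Klf15, a regulator of amino acid breakdown and glucose production, rose from 25.3 ± 6.89 to 39.5 ± 9.38 FPKM (0.64 ± 0.17, adjusted p = 0.0183). Ppara, the receptor that drives fatty acid oxidation, rose from 4.48 ± 0.591 to 8.77 ± 4.14 FPKM (0.75 ± 0.21, adjusted p = 0.0219). Hnf4a, a nuclear receptor at the centre of the hepatocyte network, rose from 46.7 ± 1.66 to 65.5 ± 15.9 FPKM (0.45 ± 0.14, adjusted p = 0.0344). All but 1 of the limonin libraries exceeded the MCD range of Hnf4a. The call held in 4 of the 11 fits with 1 library left out (adjusted p from 0.0111 to 0.0732). Without MCD 2 the number that rose was 1, which was Tbx3, and without both MCD 4 and 5 it was also 1, Klf15. With no filter 0 were called higher by limma, with adjusted p of 0.0531 for Tbx3, 0.0636 for Klf15, 0.0683 for Ppara and 0.0916 for Hnf4a.

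While 0 of these factors were called lower, 2 were lower at an unadjusted p under 0.05 (Gata4 and Gata6), and 1 was called lower without MCD 1 and 1 without both limonin 5 and 6. Nr5a2 and Rxra, also not called, were higher at an unadjusted p under 0.05 (limma). Nr5a2, Nr1h4 and Rxra had log2 fold changes of 0.33 ± 0.14, 0.16 ± 0.10 and 0.35 ± 0.16, and Gata4, Gata6 and Hhex, factors of the liver bud, -0.29 ± 0.12, -0.24 ± 0.10 and -0.30 ± 0.19, none of them called. Zhx2, a known repressor of Afp, was at 1.95 ± 0.314 and 1.91 ± 0.401 FPKM and was not called, and Zbtb20, another repressor of Afp, was under the filter at 0.449 ± 0.111 and 0.475 ± 0.135 FPKM.

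Of the other forkhead genes listed, 10 of 22 were tested and 30% of those were called, beside 25.9% of all genes. Among these, 1 rose, 2 fell and 7 were not called. This balance turned with scaling: with median ratios 3 were called higher, with quantile normalization 4 and at equal summed FPKM 2, and 1 was called lower in each of the last 2 settings. Foxp4 fell from 8.13 ± 1.57 to 5.28 ± 1.12 FPKM (log2 fold change -0.54 ± 0.14, adjusted p = 0.0123), a call kept in all 11 fits with 1 library left out. Foxj2 fell from 2.33 ± 0.339 to 1.70 ± 0.237 FPKM (-0.30 ± 0.10, adjusted p = 0.0397), and Foxo1, the insulin-restrained activator of glucose production, rose from 1.47 ± 0.163 to 2.15 ± 0.399 FPKM (0.34 ± 0.10, adjusted p = 0.0276). Foxj2 kept its call in 4 of the 11 such fits and Foxo1 in 7, with the call of Foxo1 lost without MCD 1, MCD 4, MCD 5 or limonin 2. The call of Foxj2 was also lost after quantile normalization (0.0979, log2 fold change -0.17) and at equal summed FPKM (0.148, log2 fold change -0.22), and both genes lost theirs with no filter (0.0732 for Foxj2 and 0.0602 for Foxo1). The relation of these calls to the fall of Foxa3 was not tested.

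Fetal liver genes other than Afp were mostly at low levels, and 8 of 20 listed were tested. Scd2, a stearoyl-CoA desaturase of the fetal liver and of other cell types, fell from 5.38 ± 0.948 FPKM (SD, n = 5) to 2.38 ± 0.633 FPKM (SD, n = 6), with all 6 limonin libraries below every MCD library (log2 fold change -0.93 ± 0.14, adjusted p = 0.00165). Cd24a, a surface protein of progenitor and bile duct cells, fell from 10.4 ± 4.25 to 2.91 ± 2.09 FPKM (-1.58 ± 0.35, adjusted p = 0.00995). Both calls held in each of the fits with 1 library left out and under the 3 other scalings. H19, an imprinted fetal transcript, fell from 3.88 ± 3.01 to 0.664 ± 0.460 FPKM (-1.32 ± 0.41, adjusted p = 0.0374) and Sox9, a factor of bile duct and progenitor cells, from 2.18 ± 0.936 to 1.07 ± 0.432 FPKM (-0.60 ± 0.18, adjusted p = 0.0301), calls that held in 3 and 4 of the 11 fits with 1 library left out. Both were lost after quantile normalization (0.0543 for H19 and 0.0638 for Sox9), at equal summed FPKM (0.0534 and 0.0623) and with no filter (0.0721 and 0.0866). Gpc3, Sox12, Spink1 and Cdkn1c were not called, and the other 12, among them Igf2, Dlk1 and Lin28b, did not reach 1 FPKM in 5 libraries. Genes such as H19 passed the filter mainly through the MCD libraries, so the count of falls carries no weight on its own. Without MCD 1, MCD 3, limonin 1, limonin 5 or limonin 6, 2 of the 8 were called lower.

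Markers of other liver cells moved unevenly. Bile duct, stellate, macrophage and proliferation markers fell in whole or in part, while sinusoidal endothelial markers were mixed. Over all genes tested, 18.7% were called lower. Bile duct markers, whose cells also express Foxa1 and Foxa2, were called lower for each of the 7 tested of 11 listed (Sox9 is also among the fetal genes), and for 5 to 7 with 1 library left out. Low markers could pass the filter through the MCD libraries alone, as Elf3 at 2.36 and 0.683 FPKM (means of MCD and limonin) shows, so this count has no weight on its own, and the same holds for low genes of the lists that follow. The summed FPKM of the bile duct markers ran from 72.5 to 418 in MCD and from 22.5 to 87.6 with limonin. These sums, with means of 193 and 47.1 FPKM, mostly follow Spp1, whose own means were 152 and 34.8 FPKM. Among the bile duct markers Epcam, an epithelial adhesion protein, fell by 1.61 ± 0.32 on the log2 scale. Stellate cell markers fell in 8 of 10, with sums of 79.35 to 154 FPKM in MCD and 50.5 to 75.2 FPKM with limonin. Macrophage markers fell in 6 of 12 tested (2 of 12 without MCD 2), with sums of 183 to 617 FPKM in MCD and 130 to 209 FPKM with limonin. Sinusoidal endothelial markers fell in 3 of 10 and rose in 1. There, 1 fell without MCD 2, MCD 3 or limonin 6, and the 1 that rose, Kdr, kept its call only without MCD 3, MCD 4 or limonin 5. Proliferation markers fell in 3 of 5 tested of 10 listed, and the 1 pancreatic acinar marker above the filter, Cela1, was not called. Hepatocyte products summed to 34660 to 42740 FPKM in MCD and to 36780 to 47920 FPKM with limonin, and the liver label was borne out by albumin as 1 of the 3 most abundant genes in every library. The part of the change in cell markers in the differences of Foxa3, Cebpb and Alb was not tested.

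The genes whose log2(FPKM + 1) ran most like each member over the 11 libraries were named by Pearson's r among 9634 other named genes, as a description; all genes shared the same libraries and the same group difference. Foxa3 ran most like mt-Rnr2, the mitochondrial large ribosomal RNA, with r of 0.961, and Mrps9, a mitochondrial ribosomal protein, with r of 0.948. mt-Rnr2 was at 400 ± 58.2 FPKM in MCD and 182 ± 55.9 FPKM with limonin. Cebpa ran most like Got2, the mitochondrial aspartate aminotransferase (0.932), and BC004004 (0.93). Cebpb ran most like Nudc-ps1, a pseudogene whose reads may be shared with its parent gene, and Ppdpf (both 0.963), Prox1 like Suz12 (0.96) and Bmi1 (0.952), which encode Polycomb proteins, and Foxa1 like Impa2 (0.916) and Cdk2 (0.91). Alb ran most like Aadac, a hepatocyte esterase (0.916), and Apoh (0.907), Afp like Psmd10 (0.819) and Gss (0.809), and Foxa2 like Nlrp6 (0.871, with a Spearman's rho of only 0.409) and Zkscan5 (0.863). Nothing about shared control follows from these values.

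**Figure D5:**
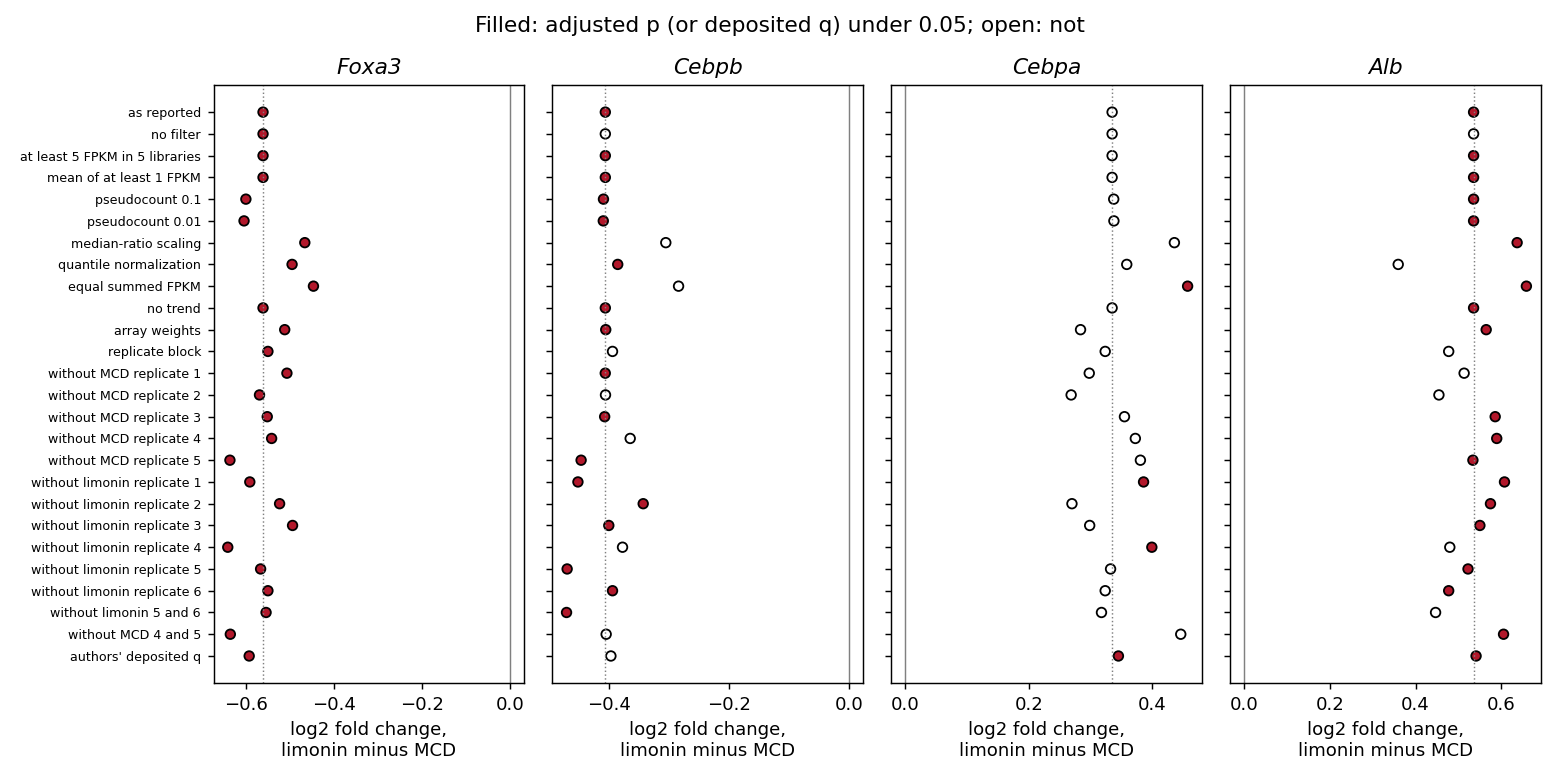
Log2 fold change, limonin minus MCD (x axis), of Foxa3, Cebpb, Cebpa and Alb under each setting (y axis); filled points have an adjusted p (or the authors' deposited q) under 0.05, the dotted line is the value reported and the grey line is 0. Foxa3 is filled in every setting, Cebpb and Alb are open in several, and Cebpa is filled in 4; no point crosses 0.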

How the data were processed

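Poly(A) RNA was sequenced from 11 livers' libraries, 5 MCD and 6 limonin, grouped by title. The authors deposited an FPKM value for every gene in each library, and also a ratio (fold) of group means, its log2, and p-values with q-values. They also gave a mark of significance. All of these are per the file headers, which name no test. The submitters' processing notes name cutadapt 1.9, HISAT2 2.0.4 and StringTie 1.3.4d, and the human build GRCh38 although identifiers are of mouse. FPKM were used as log2(FPKM + 1), which understates changes of low genes. The libraries mark strand, but no source says whether quantification used it, so overlapping antisense transcripts may add to a gene. Kept were the 10489 of 31280 genes reaching 1 FPKM in at least 5 libraries. Groups were compared by limma 3.58.1 (trend, robust; R 4.3.3), two-sided, with Benjamini-Hochberg adjustment over all genes. On simulated data with 200 genes changed of 10489, 59.7% of 1.5-fold, 91% of 2-fold and 98.5% of 4-fold changes were recovered, with 6 false calls. The simulated noise was independent between genes, and far fewer genes changed than the 2716 called here. These rates may therefore not hold for the real comparison.

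Members and lists were chosen with earlier results of these data known. Named were the members, the called genes of each list with the lowest p (up to 4) or small counts in full, and the 2 genes most like each member; other genes were chosen after their values were seen. Tf was matched as Trf, and Foxd1 was not analysed here; 3 other listed genes are not reported here and are in no list count. Coordinates come from GENCODE M21 (GRCm38; 31191 identifiers found) and promoter windows from RefSeq (GRCm38.p6; all 8 members matched by symbol). Alternatives were 3 filters, pseudocounts of 0.1 and 0.01, 3 scalings, no trend, library weights, a replicate block, libraries left out and the authors' deposited q.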

Additional observations from a re-analysis of the deposited data

Results flagged for a closer look

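In 2 of 16 groups of libraries (8 genes in each of MCD and limonin), 1 library stood far from the others by Dixon's test at the 95% level, which chance gives in about 1 of 20 groups. Foxa2 was at 15.9 FPKM in limonin 1, with the next highest limonin library at 11.2 FPKM, a gap of 0.758 of the whole range (above the critical value for 6 libraries). Without limonin 1 the log2 fold change of Foxa2 was -0.14 (adjusted p = 0.326, limma). Prox1 was at 7.26 FPKM in MCD 1, with the next highest MCD library at 4.92 FPKM, a gap of 0.83 of the range (above the critical value for 5 libraries). Without MCD 1 the log2 fold change of Prox1 was 0.15 (adjusted p = 0.438, limma), so neither gene was called with or without these libraries.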

How the results depend on the processing

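Over the alternatives run, 49 genes (the members and the called genes that the naming rule takes from the lists, some of them not named in the text) gave 1205 values, of which 1016 kept direction and side of the threshold, 178 lost a call, 4 gained one and 7 turned sign. The sign turned for Foxa1 with quantile normalization (0.016), for Foxa2 with median-ratio scaling (0.048), quantile normalization (0.031), equal summed FPKM (0.068) and without MCD 4 (0.0064; -0.14 to 0.0064 over the libraries left out), and for Prox1 without limonin 4 (-0.041; -0.041 to 0.15 over the libraries left out) and without both MCD 4 and 5 (-0.058), all of them values near 0 that were not called. The number of members called was 3, and 1 with no filter, 1 with the replicate block and 1 to 4 with 1 library left out (1 without MCD 2); Foxa3 was called in each of these. Genes called numbered 2716, and 1424 at a filter of 5 FPKM (fewer genes tested), 1256 with the replicate block, 1408 to 3062 with 1 library left out (1408 without MCD 2), and 5010 by the authors' deposited q over 31280 genes. Called higher were 759, and 412 with no filter, 1470 after median-ratio scaling, 1813 after quantile normalization, 363 with the replicate block, 1347 without both limonin 5 and 6, 486 without both MCD 4 and 5, 2682 by the authors' deposited q, and 328 to 1097 with 1 library left out (474 without MCD 1, 328 without MCD 2). Called lower were 1957, and 900 at a filter of 5 FPKM, 1112 at equal summed FPKM, 893 with the replicate block and 1080 to 2134 with 1 library left out (1080 without MCD 2). Some of these settings also held fewer genes or libraries, and the cause of the differences in these counts was not tested. With the replicate number as a block, Foxa3 kept its call (adjusted p = 0.032) while Cebpb (0.0975) and Alb (0.057) did not. The numbers give no known pairing: the deviations of same-numbered libraries correlated at 0.0761, -0.235, -0.169, 0.204 and -0.172 for numbers 1 to 5, and number 4 alone correlated best with its own number, so calls lost in the block are not read as weaker effects. Without counts, the depth behind single values is only roughly known.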

Other observations

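Foxa1 and Prox1 were highest in the same libraries. MCD 1 held the highest value of both genes in its group (4.74 and 7.26 FPKM), and limonin 4 held the highest of both in the limonin group (4.00 and 7.14 FPKM). Limonin 4 was also the limonin library with the highest Foxa3 (14.6 FPKM), the lowest Cebpa (104 FPKM) and the highest Afp (13.8 FPKM), and it had the highest share of albumin in summed FPKM (7.346%).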
